A study of Mus musculus with 12 samples.

Results

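The mRNAs that encode the enzymes writing and erasing N6-methyladenosine (m6A) were followed in RNA immunoprecipitation sequencing (RIP-seq) libraries of the m6A-binding proteins YTHDF1, YTHDF2 and YTHDF3. The 10 genes were chosen by name and not by a cut on their values, though earlier results of these data were known. They are Mettl3, Mettl14, Wtap, Virma, Rbm15, Rbm15b, Zc3h13, Cbll1, Fto and Alkbh5, out of 55573 genes in the count table, and all 10 were among the 16820 genes with enough counts to be tested. The cells were primary hippocampal neurons of newborn C57BL/6 mice, an inbred strain, kept for 14 days in culture. By the culture methods of the study, Ara-C was added on day 3 to hold back glia. The RIP methods name no further treatment. There were 4 groups of 3 libraries. Input was the total RNA of a share of lysate set aside, and the YTHDF1 RIP, YTHDF2 RIP and YTHDF3 RIP held RNA recovered with an antibody against the endogenous protein. According to the methods of the study, hippocampi of a litter were pooled without regard to sex, and for each replicate a pooled lysate was divided over the 3 RIPs and shared 1 input. Enrichment is expressed over Input, as no control-antibody library was analysed here.

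The mark is placed on nascent RNA in the nucleus by a complex in which METTL3 is the methyltransferase and METTL14 its RNA-binding partner. WTAP, VIRMA, ZC3H13, CBLL1 (also called HAKAI) and the related proteins RBM15 and RBM15B direct this complex to its sites, while FTO and ALKBH5 are dioxygenases that remove methyl groups from RNA. In neurons the mark is abundant, and it is found above all in long exons and around stop codons, where YTHDF proteins bind it in the cytoplasm. The mRNAs of the machinery can carry the mark themselves, and the question here was which of them were recovered with each YTHDF protein.

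The preferred sequence of the writer complex is a short word, and the words GGACA or GGACC, and also GGACT, were searched in the sense strand of the coding transcript with the longest coding sequence of each gene (GENCODE M21, build GRCm38). The words do not overlap one another. Of 13337 such transcripts, 99.0% held at least 1 of them, with a median of 11 per transcript, so their presence sets no mRNA apart. Of the 10 mRNAs, Zc3h13 held 29 words, Rbm15b 28, Virma 25, Alkbh5 24, Rbm15 22, Cbll1 13, Fto 12, Mettl3 and Mettl14 9 each, and Wtap 7. The last word of the coding sequence with at least 12 coding bases after it is shown for the pairs of related genes on which the results turn. The word is in capitals, with 12 bases on each side, written as DNA from 5′ to 3′ in the sense of the mRNA.
Rbm15: gcggctccgtttGGACCaacccaagttgg
Rbm15b: agtcagcgctgcGGACAttgggcaagtta
Mettl3: caaccagggcctGGACTgcgatgtgattg
Mettl14: tggctcacagttGGACCaacgcttacaaa
Fto: cccgagtcgtccGGACTttaccagtacag
Alkbh5: gatcctggaaatGGACAaagaagaaaacc
These stretches lie at chr3:107330551-107330579 for Rbm15, chr9:106884349-106884377 for Rbm15b, chr14:52296524-52296552 for Mettl3 and chr3:123369660-123369688 for Mettl14, all on the minus strand. Those of Fto and Alkbh5 are at chr8:91666290-91666318 and chr11:60554244-60554272 on the plus strand. All 6 are exonic. The word of Rbm15 lies in exon 1 of 2, that of Rbm15b in its only exon, and that of Mettl3 in exon 9 of 11. Those of Mettl14, Fto and Alkbh5 lie in the last exon. A word is a match of letters, and methylation of these sites was not measured in these libraries.

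Levels are given as CPM, that is counts relative to a common TMM-scaled library size, a scaling that equates the bulk of genes between libraries. The library totals ranged from 9092494 to 13833973 counts in Input, 10037804 to 38909592 in the YTHDF1 RIP, 6020072 to 9259893 in the YTHDF2 RIP and 21395271 to 22400602 in the YTHDF3 RIP. The 10 genes together took 4128 to 6386 counts of an input library. All 8 neuronal markers were counted in every library, with a summed level of 2627 to 4058 CPM in Input, 4201 to 7130 in the YTHDF1 RIP, 1736 to 2747 in the YTHDF2 RIP and 2766 to 5260 in the YTHDF3 RIP. The cultures also held RNA of astrocyte markers (7 of 7 counted in every library, 299 to 2747 CPM in Input, 382 to 1251 in the YTHDF1 RIP, 765 to 1384 in the YTHDF2 RIP and 205 to 1608 in the YTHDF3 RIP) and of the oligodendrocyte lineage (56.5 to 389 CPM in Input, 324 to 1395 in the YTHDF1 RIP, 367 to 471 in the YTHDF2 RIP and 55.8 to 520.02 in the YTHDF3 RIP). Microglial markers summed to 1.19 to 6.54 CPM and endothelial markers to 4.07 to 19.9 CPM over the 12 libraries, and no marker was at 0 in every library. Fewer cells of a type and less RNA per cell cannot be told apart in such lysates, and the part of glial RNA in the values of the 10 mRNAs was not tested.

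1 library stood apart for several of the mRNAs. In YTHDF1 RIP replicate 2, Mettl14, Wtap, Cbll1 and Rbm15 were at 29.9, 95.7, 33.5 and 1074 CPM, above both other replicates of that RIP, and results that rest on it are given with and without it. A gene was called enriched or depleted where its level was at least 25% above or its inverse below that of Input, with an adjusted p (Benjamini-Hochberg) up to 0.05 in edgeR's quasi-likelihood test of all 12 libraries. Errors of log2 fold changes are standard errors from that fit. The smallest exact p from 3 libraries on each side is 0.1, and the calls therefore rest on the spread that edgeR estimates across genes and libraries.

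Of the 10 genes, 6 encode subunits that direct the complex, and these made up most of what was enriched. In the YTHDF1 RIP 5 of the 10 mRNAs were enriched (Wtap, Virma, Rbm15, Rbm15b and Zc3h13) and Fto was depleted, while 27.5% of all genes tested were enriched and 26.1% depleted. In the YTHDF2 RIP 4 were enriched (Virma, Rbm15, Rbm15b and Alkbh5) and Fto again was depleted, against 16.1% and 19.3% of all genes. In the YTHDF3 RIP 5 were enriched (Mettl3, Virma, Rbm15, Rbm15b and Zc3h13) and Fto was depleted, against 16.7% and 23.2%. Virma, Rbm15 and Rbm15b were thus enriched in every RIP, Fto was depleted in every RIP, and Mettl14 and Cbll1 were called in none. The median log2 fold change of the 10 mRNAs was 0.48 for YTHDF1, 0.33 for YTHDF2 and 0.47 for YTHDF3, beside 0.02, 0.02 and 0.05 over all genes tested. Scaled by library size alone, the calls over all genes split into 3073 enriched and 6139 depleted in YTHDF1 (4624 and 4386 with TMM) and into 4821 and 2996 in YTHDF3 (2812 and 3906 with TMM). The 3 comparisons share their input libraries.

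**Figure D1:**
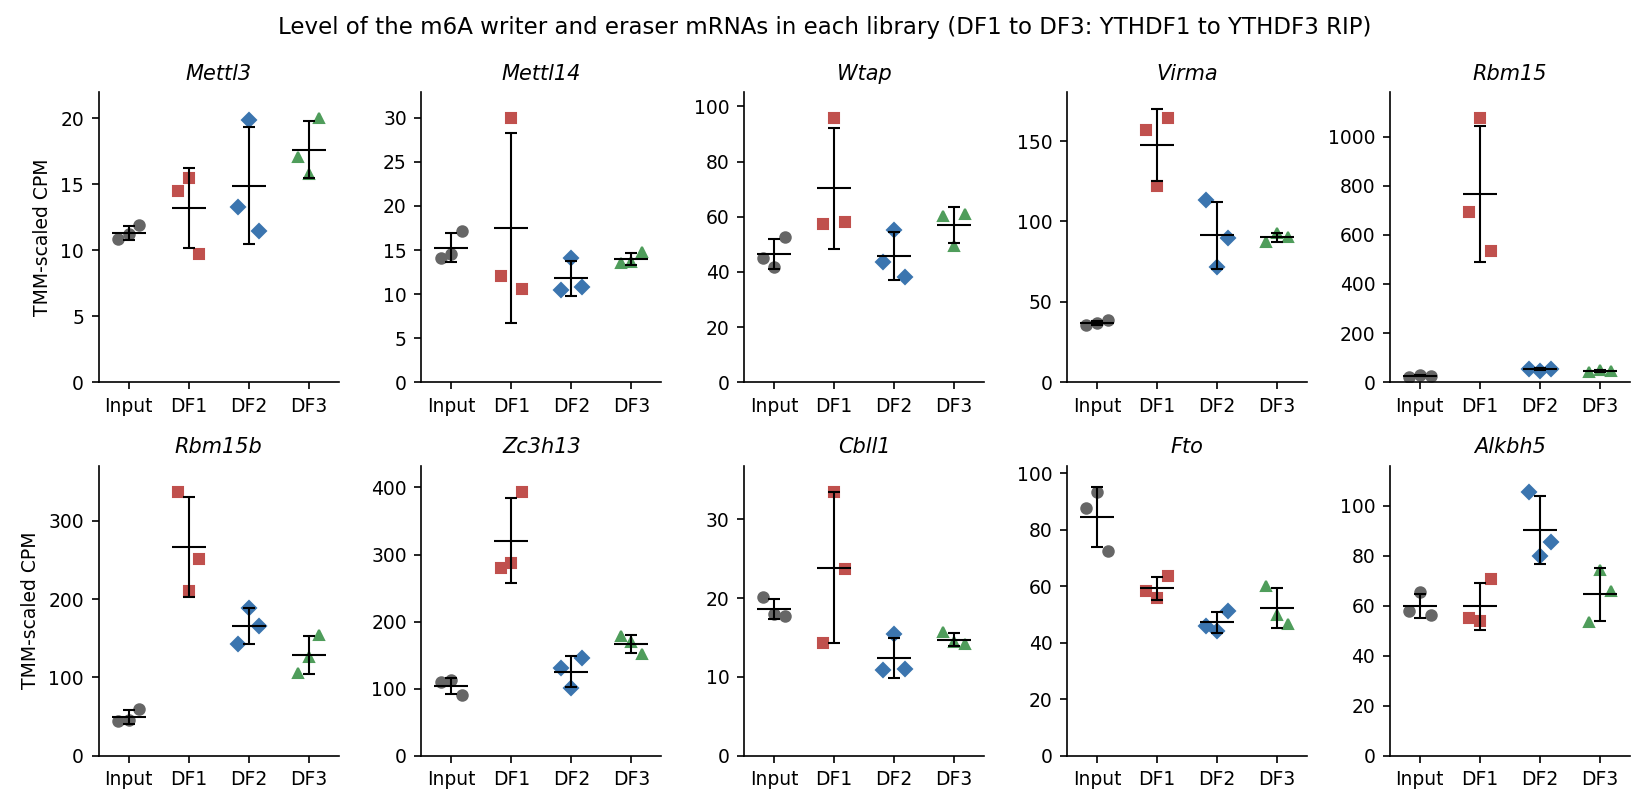
Level of each of the 10 mRNAs in TMM-scaled CPM (linear axes from 0, a scale for each gene) in the 3 libraries of Input and of the YTHDF1, YTHDF2 and YTHDF3 RIPs (DF1 to DF3). Points are libraries and bars the mean ± SD. Rbm15 reached 532 to 1074 CPM in the YTHDF1 RIP against 22.9 to 28.9 in Input, and all 9 RIP libraries held less Fto than any input.

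Rbm15 (ENSMUSG00000048109, chromosome 3, 107325421-107333673) encodes an RNA-binding adaptor of the complex and gave the largest change of the 10 mRNAs. Its level was 22.9, 28.9 and 26.8 CPM in the inputs and 692, 1074 and 532 CPM in the YTHDF1 RIP. Every YTHDF1 library was far above every input, whichever replicate was taken. The fold change was 29.2, or 4.87 ± 0.27 on the log2 scale (edgeR adjusted p 1.31e-06), which placed Rbm15 at rank 55 of 16820 genes and 28 of 13390 protein-coding genes. In the YTHDF2 RIP Rbm15 was at 55.3, 47.3 and 54.5 CPM and in the YTHDF3 RIP at 42.3, 48.4 and 44.1 CPM. These levels were also above all inputs, but by 1.998-fold and 1.72-fold (log2 1.00 ± 0.24 and 0.78 ± 0.24, edgeR adjusted p 0.00756 and 0.0211). Without YTHDF1 RIP replicate 2 the YTHDF1 change was 4.48, and it stayed enriched under every alternative fitted. The YTHDF3 call was lost without Input replicate 1 or YTHDF3 RIP replicate 2 (0.69 and 0.72, edgeR adjusted p 0.0758 and 0.0711). A model of the YTHDF3 RIP and Input alone, paired by replicate number, gave 0.84 (edgeR adjusted p 6.95e-08). That paired model called 36.5% of all genes enriched.

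The difference between the proteins was tested directly, with a limit of 2-fold and the same adjusted p. Rbm15 was 14.6-fold higher in the YTHDF1 RIP than in the YTHDF2 RIP (log2 3.87 ± 0.26, edgeR adjusted p 1.15e-05) and 17.0-fold higher than in the YTHDF3 RIP (4.09 ± 0.26, 9.98e-06). The values of the YTHDF2 and YTHDF3 RIPs overlapped, with a difference of 0.22 ± 0.23 (0.619).

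Rbm15b (ENSMUSG00000074102, chromosome 9, 106880918-106887428) encodes the paralogue of RBM15 and is transcribed as a single exon without introns. It was at 44.3, 45.1 and 59.6 CPM in Input, 337, 211 and 251 with YTHDF1, 143, 188 and 165 with YTHDF2 and 106, 126 and 154 with YTHDF3. Each RIP library exceeded each input. The log2 fold changes were 2.42 ± 0.23, 1.74 ± 0.23 and 1.37 ± 0.23 (edgeR adjusted p 1.52e-05, 0.000408 and 0.000658), that is 5.36-fold, 3.33-fold and 2.59-fold, and all 3 calls held under each alternative fitted. The YTHDF1 RIP exceeded the YTHDF3 RIP by 1.05 ± 0.22 (edgeR adjusted p 0.00672), narrowly past the 2-fold limit. Under 10 alternatives that call was lost, with a value of 0.34 under library size alone and 0.84 to 0.98 under the others, and also without Input replicate 3, YTHDF1 RIP replicate 1 or 3 or YTHDF3 RIP replicate 1 (0.85 to 0.95). Against the YTHDF2 RIP the difference was 0.69 ± 0.22, below the limit although its adjusted p was 0.0402.

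The paralogues thus changed places between the groups. Per kilobase of exonic length, the level of Rbm15 was 0.394 to 0.562 of that of Rbm15b in the inputs and 0.220 to 0.339 and 0.252 to 0.350 in the YTHDF2 and YTHDF3 RIPs, but 1.80 to 4.47 in the YTHDF1 RIP (n = 3 each). The highest of these ratios was that of YTHDF1 RIP replicate 2. Of the 6511 exonic bases of Rbm15b, 14 are shared with Manf on the same strand and 75 with Dcaf1 on the opposite strand.

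Virma (ENSMUSG00000040720, chromosome 4, 11485958-11550684) encodes the large scaffold of the complex. It lay at 35.6, 36.9 and 38.4 CPM in Input, 157, 122 and 164 with YTHDF1, 113, 71.6 and 89.4 with YTHDF2 and 87.2, 92.8 and 90.5 with YTHDF3. No RIP library overlapped the inputs. The log2 fold changes were 1.999 ± 0.19, 1.31 ± 0.19 and 1.29 ± 0.19 (edgeR adjusted p 1.42e-05, 0.000581 and 0.000294), and none of these calls was lost under any alternative fitted. The YTHDF1 RIP was higher than the others by 0.69 and 0.71 (adjusted p 0.0164 and 0.0177), which is under the 2-fold limit. Between YTHDF2 and YTHDF3 the difference was 0.02 ± 0.18.

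Zc3h13 (ENSMUSG00000022000, chromosome 14, 75284373-75344426) encodes a protein that ties WTAP to the rest of the complex and retains it in the nucleus. Per kilobase of exonic length (all transcripts merged), Zc3h13 had the highest level of the 10 in Input. Its values were 109, 113 and 89.9 CPM in Input, 280.3, 288 and 393 with YTHDF1, 130.1, 101 and 145 with YTHDF2 and 179, 169 and 152 with YTHDF3. The YTHDF1 and YTHDF3 libraries were all above the inputs, and those of YTHDF2 overlapped them. The changes were 1.62 ± 0.20 in YTHDF1 and 0.68 ± 0.20 in YTHDF3 (edgeR adjusted p 6.96e-05 and 0.0172), with 0.27 ± 0.20 in YTHDF2 (0.312). Zc3h13 was higher in the YTHDF1 than in the YTHDF2 RIP by 1.35 ± 0.20 (edgeR adjusted p 0.000537), or 0.89 under library size alone, where it fell short of 2-fold. Its YTHDF3 call was lost without Input replicate 3 or YTHDF3 RIP replicate 1 or 2 (adjusted p up to 0.0533). In the paired model of YTHDF3 and Input, Zc3h13 was at 0.74 (edgeR adjusted p 2.83e-07).

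Wtap passed narrowly in YTHDF1, and Cbll1 was not called over Input. Wtap (ENSMUSG00000060475, chromosome 17, 12966796-12994169), whose product anchors the catalytic pair in nuclear speckles, was at 45.1, 41.7 and 52.5 CPM in Input and 57.5, 95.7 and 57.9 in the YTHDF1 RIP. Its levels were 43.6, 55.3 and 38.3 CPM with YTHDF2 and 60.4, 49.6 and 61.1 with YTHDF3. The YTHDF1 libraries lay above the inputs, whereas the others overlapped them. The YTHDF1 change of 0.60 ± 0.23 passed narrowly (edgeR adjusted p 0.0427). It was lost in each of the 10 other edgeR models fitted, among them library size alone (0.18, edgeR adjusted p 0.539) and TMM over protein-coding genes (0.36, 0.204), and passed in DESeq2. It was 0.24 without YTHDF1 RIP replicate 2 (adjusted p 0.290) and was lost without 9 of the 12 libraries in turn, namely each input, YTHDF1 RIP replicates 2 and 3, YTHDF2 RIP replicate 1 and each YTHDF3 RIP replicate. In the YTHDF2 and YTHDF3 RIPs the values were -0.02 ± 0.23 and 0.30 ± 0.23 (0.948 and 0.326). Replicate numbers of the YTHDF3 RIP and Input paired, and a paired model of both groups gave 0.35 for Wtap (edgeR adjusted p 0.00174), which passed. That model called 36.5% of all genes enriched and 32.3% depleted, so a pass in it sets a gene apart from few others.

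Cbll1 (ENSMUSG00000020659, chromosome 12, 31484829-31499616), named for a RING finger protein first known as a ubiquitin ligase, was at 20.1, 18.03 and 17.7 CPM in Input. It was at 14.3, 33.5 and 23.8 CPM with YTHDF1, 10.9, 15.4 and 10.998 with YTHDF2 and 15.7, 14.4 and 14.1 with YTHDF3. The YTHDF1 libraries straddled the inputs, and all YTHDF2 and YTHDF3 libraries were below them. The log2 fold changes of 0.36 ± 0.26, -0.58 ± 0.27 and -0.34 ± 0.26 did not pass (edgeR adjusted p 0.269, 0.113 and 0.339). Without YTHDF1 RIP replicate 1 Cbll1 was enriched in YTHDF1 at 0.62 (edgeR adjusted p 0.0306), and without replicate 2 its value was -0.03. In YTHDF2 it passed as depleted without YTHDF1 RIP replicate 1 or 2 (-0.59 and -0.61, edgeR adjusted p 0.0365 and 0.0384).

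**Figure D2:**
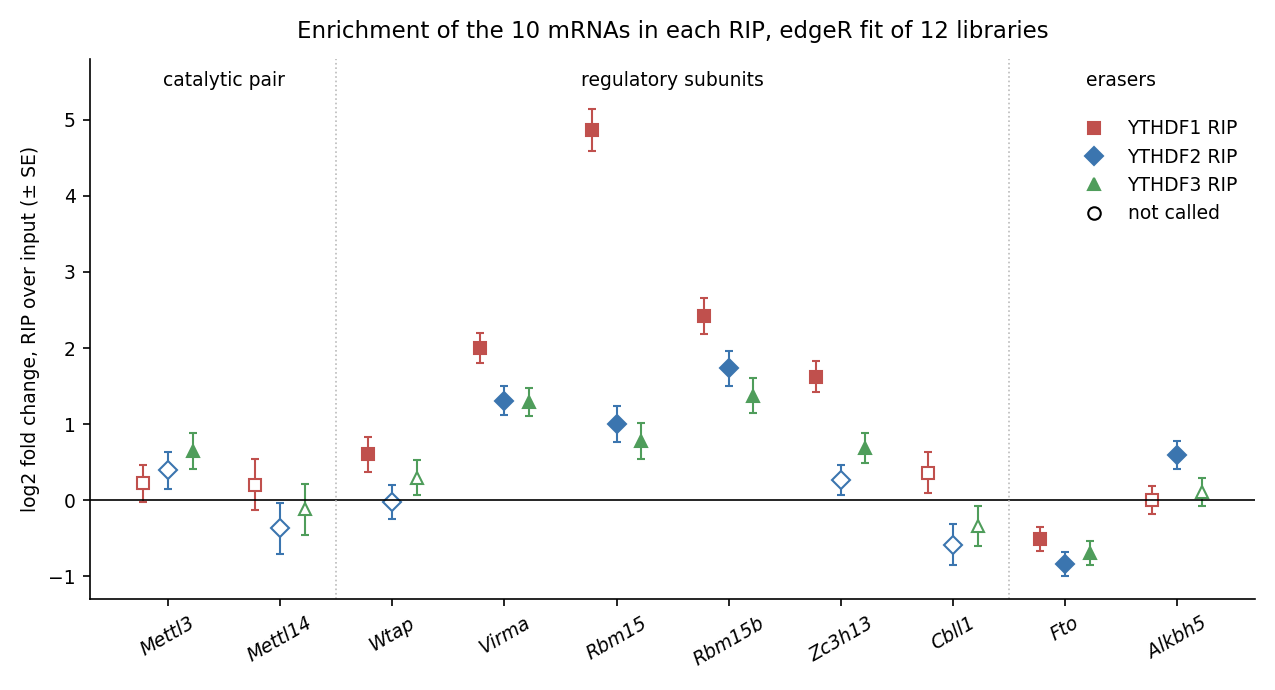
Log2 fold change of each RIP over Input (vertical axis, ± SE) for the 10 mRNAs, grouped by role, from the edgeR fit of 12 libraries. Filled symbols passed the call and open symbols did not. Virma, Rbm15 and Rbm15b are filled and above 0 in all 3 RIPs, Fto is filled and below 0 in all 3, and the 4.87 of Rbm15 in the YTHDF1 RIP stands above every other value.

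Of the catalytic pair, Mettl3 alone was called, in YTHDF3. Mettl3 (ENSMUSG00000022160, chromosome 14, 52294841-52305128), the methyltransferase itself, was at 10.8, 11.2 and 11.9 CPM in Input, from 111 to 153 counts per library. It was at 14.5, 15.4 and 9.74 CPM with YTHDF1, 13.3, 19.9 and 11.4 with YTHDF2 and 17.1, 15.8 and 19.98 with YTHDF3. The YTHDF3 libraries lay above the inputs, and those of the other RIPs overlapped them. The log2 fold changes were 0.22 ± 0.24, 0.39 ± 0.24 and 0.64 ± 0.24, of which only that of YTHDF3 passed (edgeR adjusted p 0.462, 0.227 and 0.0497). That call sat at the threshold. When the replicate entered the 12-library model as a block it was 0.65 (edgeR adjusted p 0.0581) and was lost, while the paired model of YTHDF3 and Input gave 0.69 (1.92e-05). Leaving out any 1 of the input or YTHDF3 libraries ended the call as well, as did leaving out YTHDF1 RIP replicate 1 or YTHDF2 RIP replicate 1, with values from 0.54 to 0.72. Tox4 overlaps Mettl3 by 933 exonic bases on the opposite strand, and the authors counted by strand.

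Mettl14 (ENSMUSG00000028114, chromosome 3, 123368297-123386108), the partner that shapes the RNA-binding groove, was at 14.1, 14.5 and 17.2 CPM in Input. It was at 12.03, 29.9 and 10.6 CPM with YTHDF1, 10.5, 14.1 and 10.8 with YTHDF2 and 13.5, 13.7 and 14.8 with YTHDF3. The YTHDF1 values fell on both sides of the inputs, and the YTHDF2 libraries were all just below them. No change passed, with 0.20 ± 0.33, -0.37 ± 0.34 and -0.12 ± 0.33 (edgeR adjusted p 0.636, 0.416 and 0.797). Without YTHDF1 RIP replicate 2 the YTHDF1 value was -0.50 and passed as depleted (edgeR adjusted p 0.0406), so the direction rested on that library. Per kilobase, Mettl3 was at 1.01 to 1.13 of the level of Mettl14 in the inputs, 0.753 to 1.76 in the YTHDF1 RIP, 1.55 to 2.07 in the YTHDF2 RIP and 1.69 to 1.97 in the YTHDF3 RIP. The ratios of the YTHDF2 and YTHDF3 RIPs lay above those of Input without overlap.

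Of the erasers, Fto was depleted in every RIP and Alkbh5 enriched in YTHDF2. Fto (ENSMUSG00000055932, chromosome 8, 91313525-91668439), a dioxygenase that acts on m6A and on the related cap mark, was at 87.6, 93.4 and 72.6 CPM in Input. It was at 58.3, 55.9 and 63.7 CPM with YTHDF1, 46.1, 44.3 and 51.4 with YTHDF2 and 60.2, 49.9 and 46.6 with YTHDF3. All 9 RIP libraries were below all inputs. Fto fell by 0.51 ± 0.16, 0.84 ± 0.16 and 0.70 ± 0.16 on the log2 scale (edgeR adjusted p 0.0180, 0.00237 and 0.00487), which made it 1.43-fold, 1.79-fold and 1.62-fold lower than in Input. The YTHDF1 call was lost without Input replicate 1 or 2 (-0.49 and -0.43, edgeR adjusted p 0.0528 and 0.0752) and without a filter on low counts. It was also lost in the model of YTHDF1 and Input alone with the replicate block (-0.61, edgeR adjusted p 0.147). The YTHDF3 call was lost under library size alone (-0.37, edgeR adjusted p 0.0580) and without a filter, but held in the paired YTHDF3 and Input model (-0.64).

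Alkbh5 (ENSMUSG00000042650, chromosome 11, 60536381-60558512), the nuclear m6A demethylase, was at 58.1, 65.4 and 56.1 CPM in Input and 106, 79.8 and 85.5 in the YTHDF2 RIP. In the YTHDF1 RIP it was at 54.9, 53.8 and 70.6 CPM and in the YTHDF3 RIP at 53.4, 74.2 and 66.0. The YTHDF2 libraries lay above all inputs, and those of YTHDF1 and YTHDF3 fell around them. The changes were 0.59 ± 0.18 in YTHDF2 (edgeR adjusted p 0.0268), -0.00 ± 0.18 in YTHDF1 (0.998) and 0.11 ± 0.18 in YTHDF3 (0.668). The YTHDF2 call was lost without Input replicate 1 or 3 or YTHDF2 RIP replicate 1 (0.47 to 0.57) and with TMM factors over protein-coding genes alone (0.48, edgeR adjusted p 0.0633), no filter on low counts (0.49, 0.341) or the replicate block in both groups alone (0.59, 0.0746). Per kilobase of exonic length, Fto stood at 0.595 to 0.693 of the level of Alkbh5 in the inputs and 0.415 to 0.487 in the YTHDF1 RIP. The ratio was 0.201 to 0.276 in the YTHDF2 RIP and 0.309 to 0.518 in the YTHDF3 RIP, below the inputs in all 9 RIP libraries. It compares groups and does not rank both mRNAs. The exonic length of Fto, 13031 bases, merges all its transcripts, against 3564 bases in the transcript used above. In CPM, Fto was above Alkbh5 in every input library.

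Between the RIPs, the counts of the 10 mRNAs that differed by 2-fold were near the shares of all genes. Rbm15 and Zc3h13 differed between YTHDF1 and YTHDF2, where 17.6% of all genes tested did so in either direction. Rbm15 and Rbm15b differed between YTHDF1 and YTHDF3, against 14.6% of genes. None differed between YTHDF2 and YTHDF3, against 5.14% of genes in edgeR. In that comparison 1 of the 10, Alkbh5 (0.48 ± 0.18, higher in YTHDF2), had an unadjusted p under 0.05, and DESeq2 also called 0. A test across all 3 RIPs together passed for 6 of the 10 (Virma, Rbm15, Rbm15b, Zc3h13, Cbll1 and Alkbh5, edgeR adjusted p from 2.49e-06 to 0.0479), against 32.8% of all genes. Those that did not pass were Mettl3, Mettl14, Wtap and Fto (0.122 to 0.387). Other settings added calls between RIPs. Under library size alone Mettl3 was lower with YTHDF1 than with YTHDF3 (-1.15, edgeR adjusted p 0.00788) and Alkbh5 lower with YTHDF1 than with YTHDF2 (-1.07, 0.00214). Cbll1 was higher with YTHDF1 than with YTHDF2 under no filter (1.02, 0.00932) and without YTHDF1 RIP replicate 1 or YTHDF2 RIP replicate 2 (1.204 and 1.13), and Zc3h13 was higher with YTHDF1 than with YTHDF3 without YTHDF1 RIP replicate 1 (1.03).

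The order of the mRNAs by length-scaled level, in CPM per kilobase of exonic length, changed between groups. In Input it ran from Zc3h13 (16.6 ± 1.98, mean ± SD, n = 3 here and below) over Alkbh5 (9.99 ± 0.818), Rbm15b (7.63 ± 1.32), Wtap (7.43 ± 0.887), Fto (6.49 ± 0.825), Virma (5.18 ± 0.197), Cbll1 (4.64 ± 0.327) and Rbm15 (3.53 ± 0.406) to Mettl3 (2.23 ± 0.108) and Mettl14 (2.06 ± 0.224). The ranges of Rbm15b, Wtap and Fto overlapped from neighbour to neighbour, as did those of Virma and Cbll1 and of the catalytic pair. Among 13390 protein-coding genes tested, Zc3h13 stood at percentile 85.9 of the input level and the catalytic pair at 33.5 (Mettl3) and 31.7 (Mettl14). In the YTHDF1 RIP Rbm15 came first at 103 ± 37.5, ahead of Zc3h13 (51.0 ± 10.1) and Rbm15b (40.9 ± 9.88), whose ranges overlapped. In the YTHDF2 RIP the order began with Rbm15b (25.4 ± 3.49), Zc3h13 (19.97 ± 3.59) and Alkbh5 (15.1 ± 2.25), each overlapping the next. In the YTHDF3 RIP it began with Zc3h13 (26.5 ± 2.18), Rbm15b (19.8 ± 3.67) and Virma (12.6 ± 0.394), of which the first and the second did not overlap. On this scale Mettl3 and Mettl14 were the lowest of the 10 in all 4 groups. It divides by an exonic length that merges all transcripts and, for several genes, far exceeds the transcript used above. For Mettl3 it is 5076 against 2025 bases, for Mettl14 7419 against 2741, for Wtap 6248 against 2060 and for Fto 13031 against 3564. For Cbll1 it is 4007 against 3900. The order and percentiles depend on that length, and levels per kilobase of transcript were not computed.

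**Figure D3:**
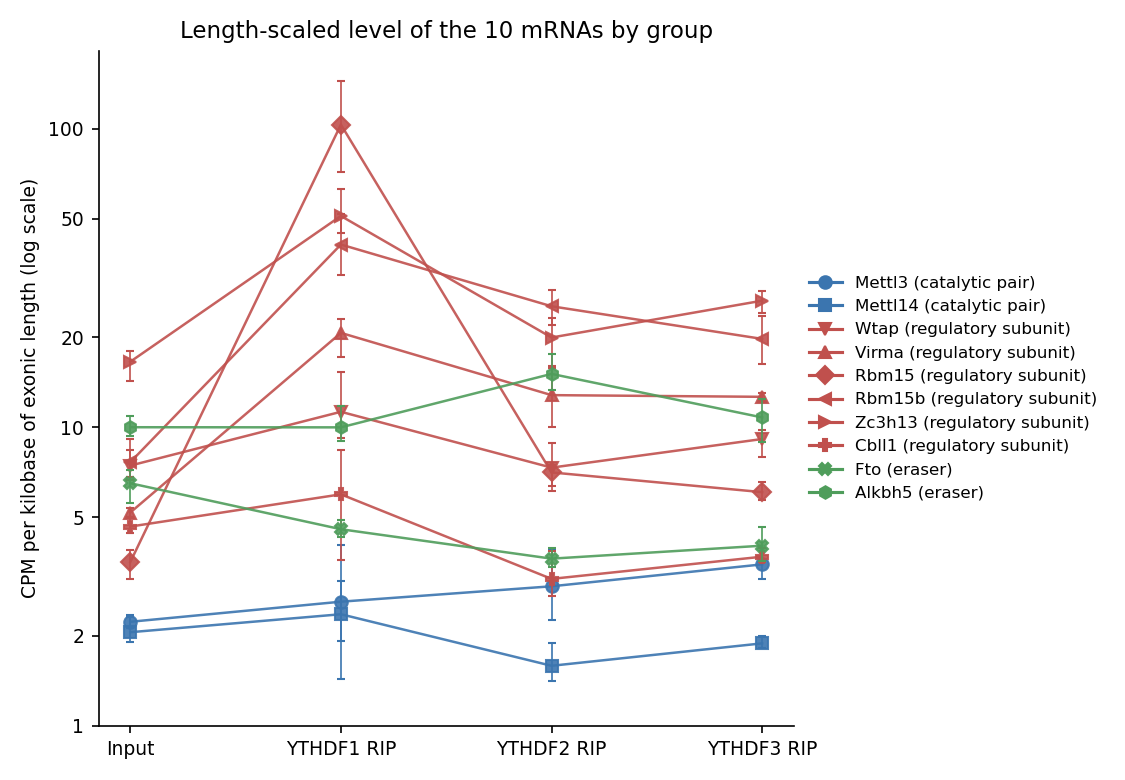
Mean level per group in CPM per kilobase of exonic length (log axis), with bars from the lowest to the highest of the 3 libraries and colours for the roles. The line of Rbm15 rises from 3.53 in Input to 103 in the YTHDF1 RIP, and the catalytic pair stays at the bottom of this scale in each group. The exonic length merges all transcripts of a gene.

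Gene structure was compared because m6A is known to be frequent in long exons. In the transcripts used above, the longest coding exon was 2866 bases in Rbm15 (99.3% of its coding sequence) and 2661 bases in Rbm15b (100%), at percentiles 98.3 and 98.0 of 13337 coding transcripts. It was 1191 bases in Zc3h13 and 1141 in Virma (percentiles 87.7 and 86.8), 1033 in Cbll1, 773 in Alkbh5, 619 in Fto and 581 in Wtap. Mettl3 and Mettl14 had 405 and 302 bases, near the median of 303. The 4 mRNAs with the longest coding exons had the 4 highest values in the YTHDF1 and YTHDF3 RIPs. In YTHDF3, however, Zc3h13 (0.68 ± 0.20) was above Mettl3 (0.64 ± 0.24) by less than their standard errors. Cbll1, next in the order of exon length, was called in no RIP. In the YTHDF2 RIP, Alkbh5 (0.59) and Mettl3 (0.39) were above Zc3h13 (0.27). As a description over these 10 genes, which share their libraries, the Spearman correlation of longest coding exon and log2 fold change was 0.770 for YTHDF1, 0.588 for YTHDF2 and 0.636 for YTHDF3, beside 0.546, 0.433 and 0.538 over 13337 coding genes. For the number of words of the writer complex it was 0.474, 0.571 and 0.571 over the 10 genes, beside 0.536, 0.473 and 0.579 over coding genes. Words per kilobase of transcript gave 0.576, 0.648 and 0.697 over the 10 genes, above those of the longest coding exon in YTHDF2 and YTHDF3, but 0.0112, 0.177 and 0.0688 over coding genes. The length of the coding sequence gave 0.673, 0.479 and 0.685 over the 10 genes and 0.616, 0.578 and 0.676 over coding genes, where it exceeded the longest coding exon in all 3 RIPs. Words per kilobase of coding sequence were highest in Rbm15b (7.89), Alkbh5 (6.75) and Rbm15 (6.58) and lowest in Wtap (2.53) and Fto (3.32), around a median of 4.20 over coding transcripts.

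**Figure D4:**
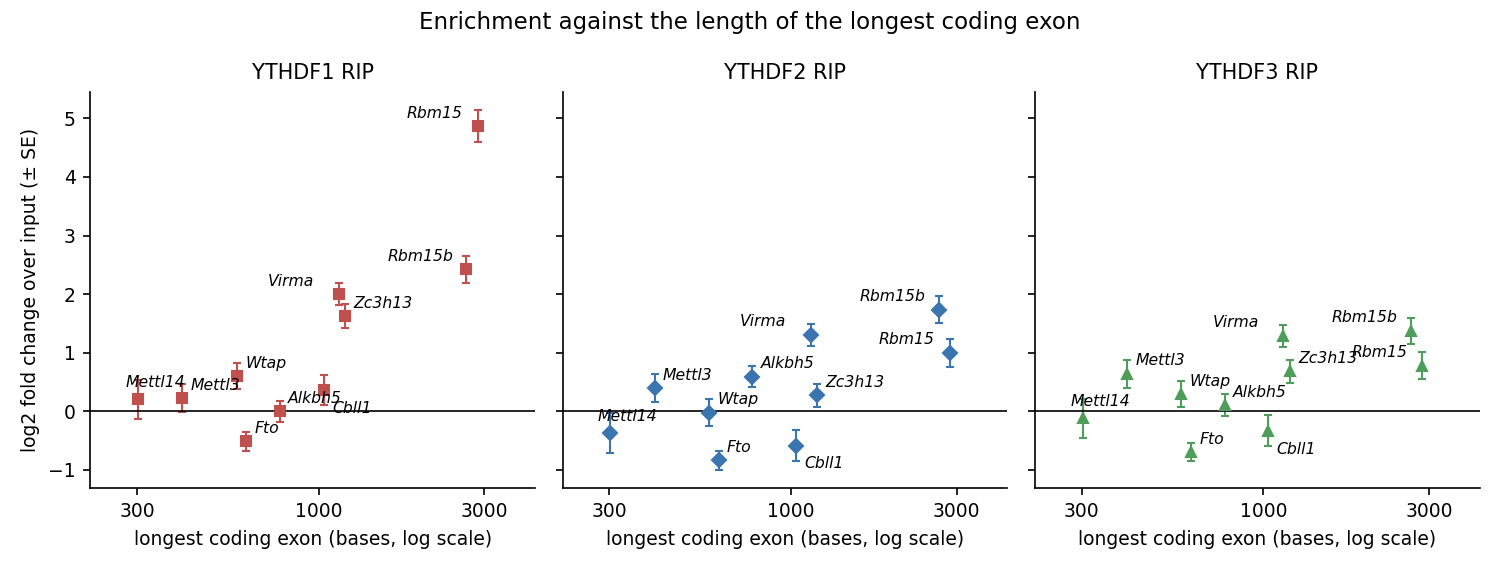
Log2 fold change over Input (± SE) of the 10 mRNAs against the length of the longest coding exon (bases, log axis) for each RIP. Rbm15 and Rbm15b lie at the right, at 2866 and 2661 bases, and Rbm15 is at 4.87 in the YTHDF1 RIP, with 1.00 and 0.78 in the other RIPs.

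Over all genes the fold changes grew with gene length, so the fit was repeated with the trend of each library on exonic length removed. The Spearman correlation of exonic length with the log2 fold change over 16820 genes was 0.463 for YTHDF1, 0.384 for YTHDF2 and 0.528 for YTHDF3. Over the 10 genes it was only 0.115, 0.030 and 0.091. The length of the transcript used above gave 0.515, 0.624 and 0.588 over the 10 genes and 0.606, 0.414 and 0.618 over coding genes. After removal Virma and Rbm15b stayed enriched in all RIPs, at 1.46, 1.00 and 0.94 and at 1.98, 1.47 and 1.08. Rbm15 stayed enriched in YTHDF1 (4.31) and YTHDF2 (0.69, edgeR adjusted p 0.0439) but not in YTHDF3 (0.41, 0.194). Zc3h13 stayed enriched in YTHDF1 (1.19) and not in YTHDF3 (0.41, 0.133), and the calls of Wtap in YTHDF1, Alkbh5 in YTHDF2 and Mettl3 in YTHDF3 were lost. Fto became more depleted, at -1.62, -1.29 and -1.32. Its exonic length in the count table, 13031 bases, merges all its transcripts and far exceeds the 3564 bases of the transcript used above, and the trend was removed with the former. The merged length was also well above that of the transcript for Wtap (6248 against 2060 bases), Mettl14 (7419 against 2741), Mettl3 (5076 against 2025) and Rbm15 (7423 against 4343).

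**Figure D5:**
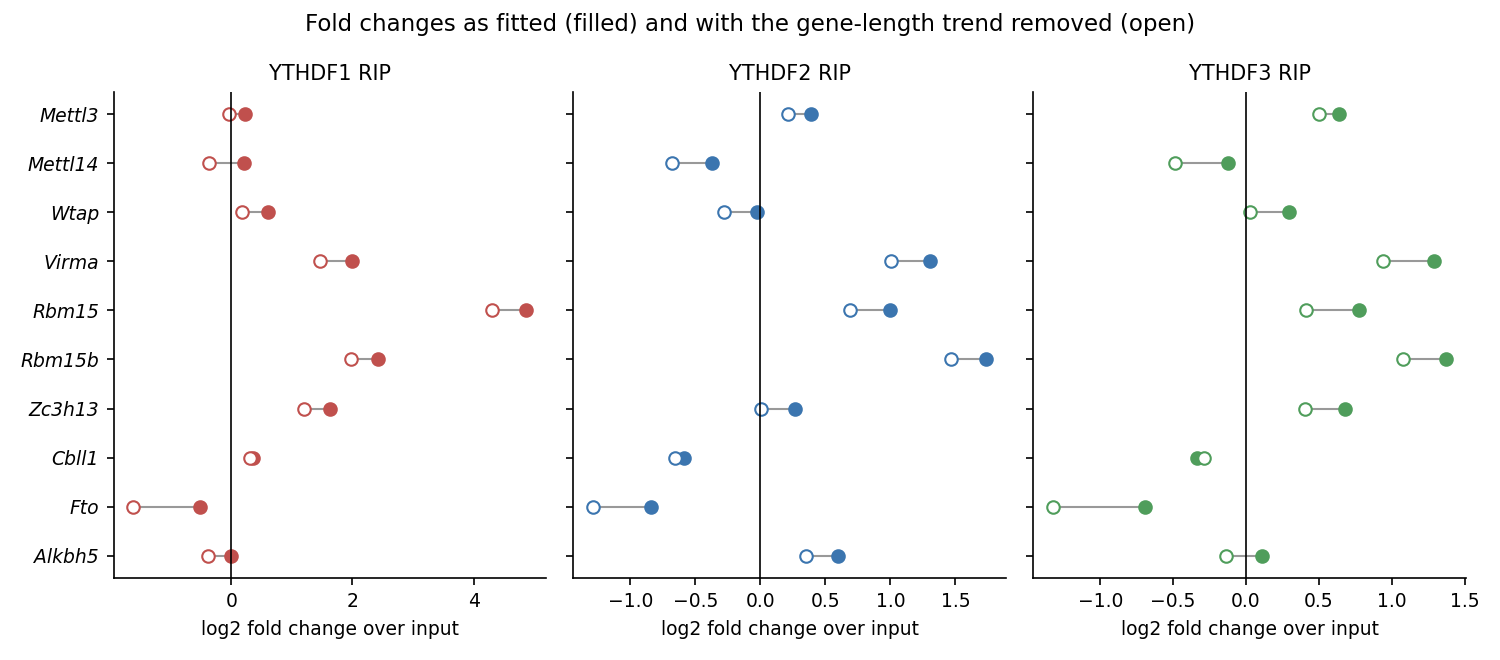
Log2 fold change over Input (horizontal axes, a scale for each RIP) of the 10 mRNAs as fitted (filled) and with the trend on exonic length removed (open). Most points move to the left, and Fto moves furthest, from -0.51 to -1.62 in the YTHDF1 RIP.

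Genes of the same pathway were counted for comparison, in lists made with earlier results of these data known. Of 6 other N6-adenosine methyltransferases and partners, 1 was enriched and 2 depleted in YTHDF1, 1 and 1 in YTHDF2, and 2 were depleted in YTHDF3. With so few genes these counts are near the shares of all genes, 27.5% enriched and 26.1% depleted in YTHDF1, 16.1% and 19.3% in YTHDF2, and 23.2% depleted in YTHDF3. Their medians were -0.11, 0.27 and -0.16. Mettl16, which methylates U6 RNA and the Mat2a hairpins, was enriched in YTHDF1 at 1.09 ± 0.34 (edgeR adjusted p 0.0175), but at 0.51 without YTHDF1 RIP replicate 2 (0.112) and not without Input replicate 2 or 3, and its values were 0.30 ± 0.34 and -0.53 ± 0.34 in YTHDF2 and YTHDF3. Mettl5, which methylates 18S ribosomal RNA, was depleted in each RIP at -1.62 ± 0.37, -1.25 ± 0.37 and -1.32 ± 0.36 (0.00314, 0.0221 and 0.0117), though in YTHDF2 not without Input replicate 1 or 2 or YTHDF2 RIP replicate 1 or 3. Its partner Trmt112 was depleted in YTHDF1 and YTHDF3 at -1.37 ± 0.26 and -1.98 ± 0.26 (0.00103 and 0.000158), with -0.66 ± 0.26 in YTHDF2 (0.0668). Zcchc4, the 28S ribosomal RNA enzyme, was enriched in YTHDF2 at 0.72 ± 0.24 (0.0378), a call lost without Input replicate 1 or 3 or any YTHDF2 library, and lay at -0.21 and 0.22 in the others. Pcif1, which marks the cap-adjacent adenosine, had values of -0.01, 0.25 and 0.59 and Mettl4 values of 0.43, 0.48 and 0.42, none of which passed. By the paired model of YTHDF3 and Input, Mettl16 passed as depleted (-0.48, edgeR adjusted p 0.000229) and Pcif1 (0.65, 9.74e-06) and Mettl4 (0.47, 0.00104) as enriched in YTHDF3.

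Of 7 other AlkB dioxygenases, 1 was enriched and 5 were depleted in YTHDF1 (median -1.02), where 27.5% and 26.1% of all genes were. In YTHDF2 (median -0.34) and YTHDF3 (-0.07) 2 were depleted in each, near the 19.3% and 23.2% of all genes. Alkbh6 was depleted in each RIP, at -2.49 ± 0.37, -1.32 ± 0.36 and -1.94 ± 0.35 (edgeR adjusted p 0.000217, 0.0144 and 0.00120). Alkbh7 was depleted in YTHDF1 and YTHDF3 at -1.20 ± 0.38 and -2.10 ± 0.39 (0.0201 and 0.00130), and Alkbh2 in YTHDF1 at -1.36 ± 0.46 (0.0248). Alkbh7 and Alkbh2 had at most 50 and 26 counts in an input library. Their YTHDF1 calls were lost without YTHDF1 RIP replicate 3, and also without Input replicate 1 or 2 for Alkbh7 and Input replicate 3 for Alkbh2, and that of Alkbh6 in YTHDF2 was lost without Input replicate 1.

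Among 6 genes of methyl donor synthesis and recycling, Mat1a had too few counts to be tested. Of the others 1 was enriched and 1 depleted in YTHDF1, 1 was enriched in YTHDF2, and 1 was enriched and 2 depleted in YTHDF3, with medians of -0.53, -0.05 and -0.34. These counts, of 5 genes, are likewise near the shares of all genes just given and the 16.7% enriched in YTHDF3. Mat2a, which makes the methyl donor S-adenosylmethionine, was enriched in all 3 RIPs by 1.66 ± 0.20, 1.44 ± 0.20 and 0.95 ± 0.20 (edgeR adjusted p 5.94e-05, 0.000502 and 0.00278). Its level was 56.5 to 93.3 CPM in Input and 221 to 259, 199 to 214 and 125 to 165 CPM in the YTHDF1, YTHDF2 and YTHDF3 RIPs, without overlap. Ahcy and Ahcyl1, of the recycling arm, were depleted in YTHDF3 at -1.08 ± 0.37 and -0.85 ± 0.31 (0.0355 and 0.0472). The call of Ahcy was lost without Input replicate 2 or 3 or any YTHDF3 library. That of Ahcyl1 was lost without Input replicate 1 or 2, YTHDF1 RIP replicate 2, YTHDF2 RIP replicate 1 or 3 or any YTHDF3 library, and with the replicate block in the 12 libraries (0.0616). Of 12 m6A readers, 5, 1 and 2 were enriched in YTHDF1, YTHDF2 and YTHDF3, with medians of 0.63, 0.42 and 0.21, beside 27.5%, 16.1% and 16.7% of all genes, so that the YTHDF2 and YTHDF3 counts do not exceed that share. In YTHDF1 the largest were Ythdf3 (2.24 ± 0.22), Ythdc2 (1.33 ± 0.26) and Ythdf2 (1.28 ± 0.15), with edgeR adjusted p of 1.8e-05, 0.00121 and 5.23e-05. Ythdf3 also passed in YTHDF2 and YTHDF3 (0.61 ± 0.22 and 0.59 ± 0.21, 0.0460 and 0.0451), and both calls were lost without any 1 library of Input, YTHDF2 or YTHDF3 and with the replicate as a block in the 12 libraries (0.0645 and 0.0656). By the paired model, 6 of the 12 readers were enriched in YTHDF3, against 36.5% of all genes.

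For 4 of the genes, those whose libraries varied most alike were looked up among 10512 genes with a mean of at least 100 normalized counts, as a Pearson correlation of log2 CPM over the 12 libraries. They were Rnf220 (0.950) and Nvl (0.925) for Mettl3, Pum3 (0.883) and Syncrip (0.876) for Mettl14, Lin7a (0.968) and Limd2 (0.961) for Fto, and Cmtm4 (0.909) and Zfp664 (0.909) for Alkbh5. The 12 points share inputs, cultures and scaling, and such maxima over many genes are a description only.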

How the data were processed

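The authors deposited a table of gene counts for 12 libraries of strand-specific total RNA. Their processing used UMI-tools 1.1.1, cutadapt 3.4, STAR 2.7.7a (mm10) and featureCounts 2.0.1 with Ensembl release 97, counting read pairs by strand (setting 2), with multi-mapped reads and reads over several genes counted for each gene. The authors' own comparisons, DESeq2 fold changes and p-values, were not used. Groups were taken from the sample labels. Genes with a mean of at least 10 median-ratio normalized counts were tested in edgeR 4.0.16 (R 4.3.3) with TMM factors and quasi-likelihood tests of 4 groups, adjusted by Benjamini-Hochberg over all genes tested. The procedure was tested on simulated data in which far fewer genes changed than were called here, so that test does not check the scaling. Standard errors are the log2 fold change over the square root of F. DESeq2 1.42.0, other scalings and filters, a replicate block, removal of the length trend and leaving out each library were the alternatives. Sample numbers of YTHDF3 and Input paired (correlation of deviations 0.539 to 0.835, 3 of 3 best with their own number), as the shared lysate in the methods implies. All 10 genes are named in every comparison. The genes and lists were chosen with earlier results of these data known. All 6 other N6-adenosine methyltransferases and partners are named, and from each further list at most 3 genes, those with the largest called change in any comparison with Input. Library depth sets the counting precision, and the lowest gene, Mettl14, had 79 counts in its smallest library.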

Additional observations from a re-analysis of the deposited data

Results flagged for a closer look

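In 4 instances the RIPs differed from each other by more than 2-fold for an mRNA, by a direct test of the difference in edgeR. Rbm15 was higher in the YTHDF1 RIP than in the YTHDF2 RIP by 3.87 and than in the YTHDF3 RIP by 4.09 on the log2 scale. Zc3h13 was higher in the YTHDF1 than in the YTHDF2 RIP by 1.35, and Rbm15b higher in the YTHDF1 than in the YTHDF3 RIP by 1.05. These comparisons share the libraries of the YTHDF1 RIP.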

How the results depend on the processing

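Of the calls against Input, those of Virma and Rbm15b in all 3 RIPs, Rbm15 in YTHDF1 and YTHDF2, Zc3h13 in YTHDF1 and Fto in YTHDF2 held in every alternative fitted. The cause of the changes below was not tested. The count of depleted mRNAs in YTHDF1 was 0 with no filter on low counts and in the 2 groups alone with the replicate block. In YTHDF2 it was 2 in the 2 groups alone without the block, where Cbll1 (-0.59) was added. In YTHDF3 it was 0 under library size alone and with no filter, and the count of enriched mRNAs was 2 with the length trend removed, with and without the block. The count that differed between YTHDF1 and YTHDF3 was 1 under DESeq2 size factors, TMM over protein-coding genes, no filter, a minimum mean of 50, the length trend removed (with and without the block), the 2 groups alone (with and without the block) and DESeq2. Leaving out 1 library gave 4 to 6 enriched and 0 to 2 depleted in YTHDF1, 3 to 4 and 1 to 2 in YTHDF2, 2 to 5 and 1 to 1 in YTHDF3, and 2 to 3, 1 to 2 and 0 to 0 that differed between YTHDF1 and YTHDF2, YTHDF1 and YTHDF3, and YTHDF2 and YTHDF3.

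Among the 10 mRNAs the signs that reversed were of values that had not passed, and of the other genes the called value of Mettl16 in YTHDF1 reversed with the length trend removed. Under library size alone, which moved the median of all genes to -0.38, 0.09 and 0.38 in the 3 RIPs, they were Mettl3 -0.17, Mettl14 -0.23 and Cbll1 -0.073 in YTHDF1, Wtap 0.057 in YTHDF2, Mettl14 0.21 in YTHDF3, Fto -0.14 between YTHDF1 and YTHDF2, Mettl14 -0.44, Wtap -0.44, Virma -0.0093, Cbll1 -0.065 and Fto -0.53 between YTHDF1 and YTHDF3, and Virma -0.24 and Rbm15 -0.045 between YTHDF2 and YTHDF3. With TMM over protein-coding genes they were Mettl3 -0.019 and Mettl14 -0.041 in YTHDF1, Fto -0.015 between YTHDF1 and YTHDF3 and Virma -0.054 between YTHDF2 and YTHDF3. With no filter they were Mettl14 0.011 in YTHDF3 and Virma -0.21 and Rbm15 -0.014 between YTHDF2 and YTHDF3. With the length trend removed, without and with the block, Mettl3 was -0.038 and -0.058, Mettl14 -0.37 and -0.47, Mettl16 -0.10 and -0.17 and Mettl4 -0.23 and -0.25 in YTHDF1, Mettl16 -0.16 and -0.18 and Pcif1 -0.021 and -0.026 in YTHDF2, Zc3h13 -0.0038 with the block in YTHDF2, and Alkbh5 -0.14 and -0.14 and Zcchc4 -0.32 and -0.32 in YTHDF3. Fto was then -0.33 and -0.34 between YTHDF1 and YTHDF2, -0.29 and -0.29 between YTHDF1 and YTHDF3 and 0.038 and 0.047 between YTHDF2 and YTHDF3. In the 2 groups alone, without and with the block, Fto was -0.0078 and -0.0055 between YTHDF1 and YTHDF3 and Virma -0.10 and -0.12 between YTHDF2 and YTHDF3, and with the block Mettl14 was -0.066 in YTHDF1 and -0.038 between YTHDF1 and YTHDF3. DESeq2 size factors and DESeq2 gave Virma -0.033 and -0.032 between YTHDF2 and YTHDF3.

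Leaving out 1 library turned the sign within these ranges: in YTHDF1 Mettl14 -0.50 to 0.40, Cbll1 -0.032 to 0.62, Alkbh5 -0.23 to 0.068, Zcchc4 -0.42 to 0.020 and Pcif1 -0.17 to 0.11, in YTHDF2 Wtap -0.18 to 0.091, and in YTHDF3 Mettl14 -0.18 to 0.015 and Alkbh5 -0.0033 to 0.23. Between YTHDF1 and YTHDF2 they were Mettl3 -0.35 to 0.091 and Mettl14 -0.11 to 0.78, between YTHDF1 and YTHDF3 Mettl14 -0.43 to 0.53, Wtap -0.10 to 0.43, Fto -0.016 to 0.30 and Alkbh5 -0.40 to 0.0026, and between YTHDF2 and YTHDF3 Virma -0.16 to 0.17.

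The replicate numbers of YTHDF1 and YTHDF2 did not pair with Input (correlations of deviations -0.329 to 0.0895 and -0.326 to 0.186) nor all RIPs with each other (0.0697 to 0.553, -0.351 to 0.106 and -0.355 to 0.175). Under other numbers, replicate 2 of the YTHDF1 and of the YTHDF2 RIP went with Input replicate 3 (0.471 and 0.568). All other pairs of these RIPs with Input were at 0.226 or less. A block by number may therefore join libraries of different lysates, which was not tested. A block on the replicate in all 12 libraries ended the calls of Wtap in YTHDF1 (0.57, edgeR adjusted p 0.0681) and Mettl3 in YTHDF3 and no other call of the 10 mRNAs.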
